A study of Homo sapiens with 2 samples.

Results

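The kinesin genes are described here in SNU449 cells, a human line from a liver cancer, in 1 library made 7 days after lentiviral delivery of a short hairpin RNA (shRNA) against FZD2 and in 1 library made 7 days after delivery of a control shRNA. Both groups therefore carry a lentivirus and an shRNA, and poly(A) RNA was sequenced from both. The members are the 42 protein-coding genes whose symbol is KIF or KIFC with a number and at most 2 letters, of 19316 genes listed in at least 1 library. They were sorted by known role into 15 mitotic kinesins, 15 cargo-transport kinesins and 12 other kinesins. The members were not chosen from measured values, but they and all lists were chosen with earlier results of these data known.

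Kinesins are motor proteins that use ATP to move along microtubules or to take their ends apart. Mitotic kinesins build the spindle, move chromosomes and drive cytokinesis, and their transcripts are known to accumulate late in the cell cycle. Cargo-transport kinesins carry organelles, vesicles, RNA and protein complexes, mostly outwards along microtubules, and are active throughout the cell cycle. FZD2 encodes a cell surface receptor of the frizzled family, which binds Wnt proteins.

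Expected counts, which are estimated reads per gene, summed to 8234592 for FZD2 shRNA and 8436870 for control shRNA. FZD2 itself was at 15.76 FPKM (fragments per kilobase of transcript, scaled to library size) under FZD2 shRNA and 59.45 FPKM under control shRNA, in the direction the labels give. The FZD2 counts, 503.28 under FZD2 shRNA and 1949.91 under control shRNA, were not whole, so some reads may be shared with other genes. With 1 library in each group there is no replicate error, no test and no p-value. Intervals below are 95% intervals of the ratio of read counts, which cover counting error only. They may be too narrow even for that, since amplified reads are not independent molecules. A gene was called measured at 1 FPKM or more in at least 1 library. It was called higher or lower where the log2 ratio of FPKM + 1, FZD2 shRNA over control, reached 1 in size, which is 2-fold. The series' design text spells the line SNU499, where its title and the sample labels have SNU449. The cell type label says liver while the growth protocol says prostate. Of 14 hepatocyte markers 4 were measured, and these summed to 245.54 FPKM under FZD2 shRNA and 210.05 FPKM under control shRNA. Most of that sum came from the fibrinogen genes FGB (105.30 FPKM under FZD2 shRNA and 91.67 FPKM under control shRNA) and FGG (123.36 FPKM under FZD2 shRNA and 100.72 FPKM under control shRNA), while ALB, AFP and HNF4A were below 1 FPKM or not listed. Of 8 prostate markers 4 were measured, with KLK3, KLK2, TMPRSS2 and FOLH1 listed in neither.

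Of the 42 kinesin genes, 30 were measured: 13 of 15 mitotic, 11 of 15 cargo-transport and 6 of 12 others. Together the kinesins took 0.307% of expected counts under FZD2 shRNA and 0.240% under control shRNA. Their summed level over measured members was 579.3 FPKM under FZD2 shRNA and 491.5 FPKM under control shRNA. Over the 30, 3 were at least 2-fold higher and 2 at least 2-fold lower, beside 15.2% higher and 7.41% lower among all 14377 measured genes. The 5 were KIF3A, KIF5B and KIF20B on the higher side, and KIF20A and KIF3C on the lower side. The median log2 ratio of the 30 was -0.01, and that of all measured genes was -0.00.

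The 2 main classes had medians of opposite sign. Mitotic kinesins had a median log2 ratio of -0.54, with 9 of 13 below 0, and cargo-transport kinesins one of 0.36, with 4 of 11 below 0. The difference between these medians, mitotic minus cargo-transport, was -0.90. Counts past 2-fold did not show this, with 1 mitotic member higher and 1 lower, and 2 cargo-transport members higher and 1 lower. By the counting interval alone, 8 of the 13 mitotic members were below a ratio of 1, 3 above it and 2 spanned it. Among the 11 cargo-transport members, 3 were below, 6 above and 2 spanned it. Among all measured genes the interval lay below 1 for 36.8% and above 1 for 35.5%. The classes overlapped, since mitotic members ran from -1.54 to 1.03 and cargo-transport members from -1.10 to 1.69. In a bulk library, fewer cells in mitosis and less of a transcript in each cell cannot be told apart.

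**Figure D1:**
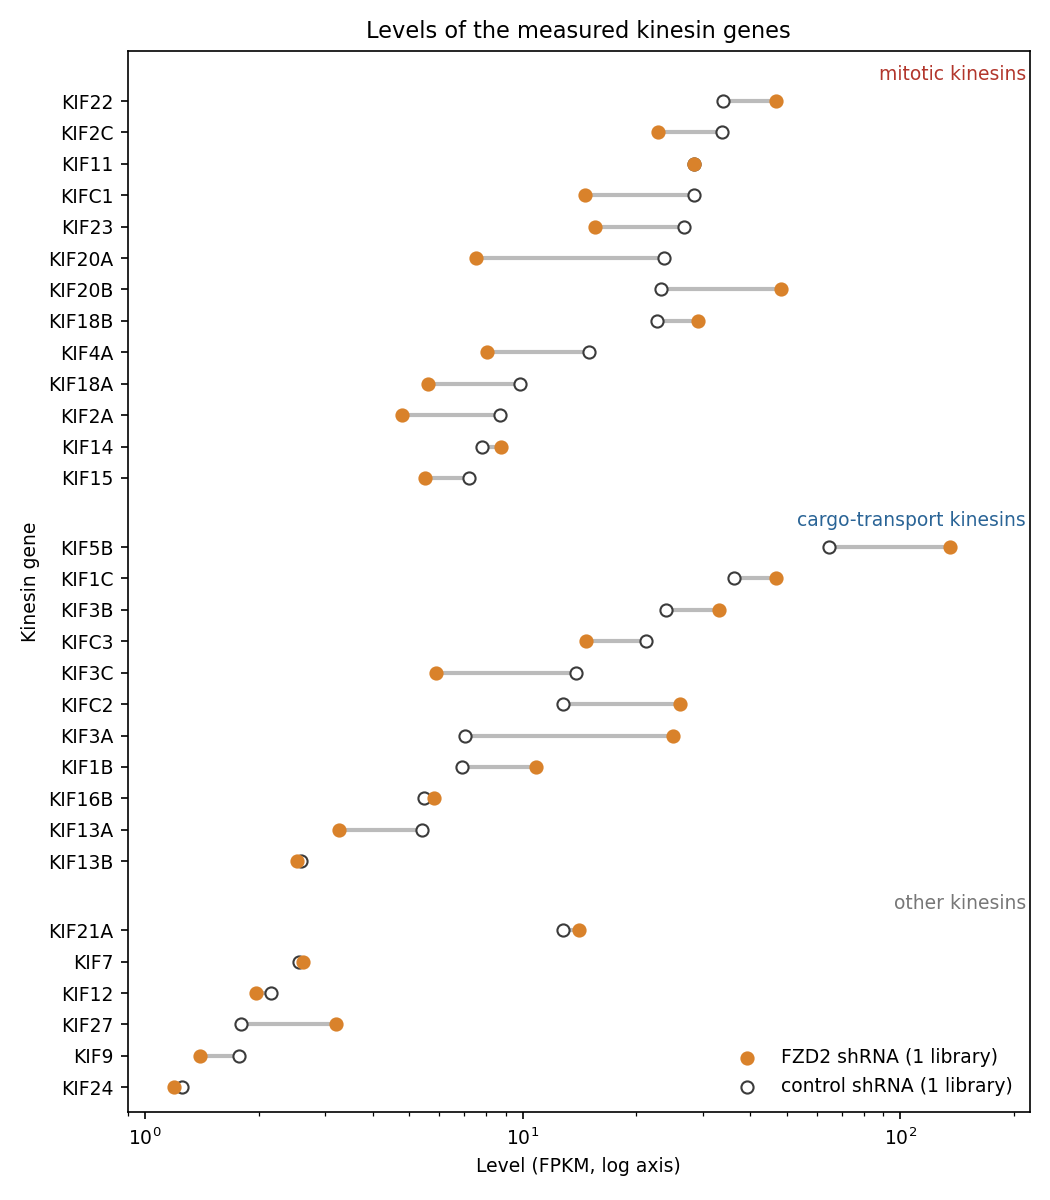
Level of each measured kinesin gene in FPKM on a log axis, with the FZD2 shRNA library as a filled point and the control library as an open point, by class and in order of the control level. KIF5B was the highest in both libraries, at 135.12 FPKM under FZD2 shRNA and 64.79 FPKM under control shRNA, and the widest gaps between points belong to KIF3A and KIF20A. The open point of KIF11 lies under its filled one.

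**Figure D2:**
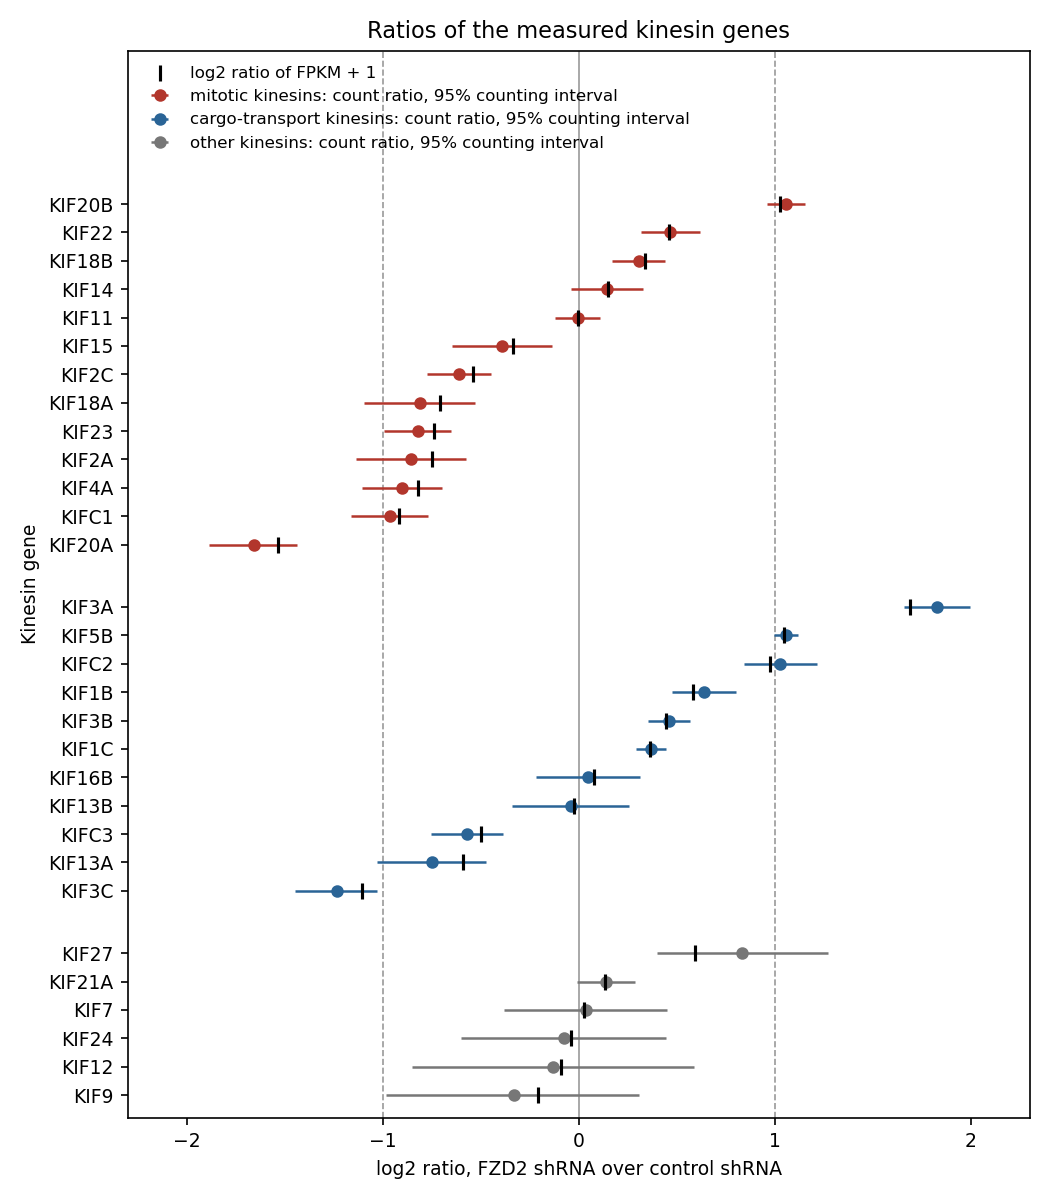
Log2 ratio, FZD2 shRNA over control shRNA, of each measured kinesin gene. Round points and bars are count ratios with 95% counting intervals, black ticks are log2 ratios of FPKM + 1, and dashed lines mark 2-fold. Of the mitotic members, 9 of 13 ticks lie below 0, against 4 of 11 among cargo-transport members.

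Cytokinesis kinesins held the lowest and the highest of the mitotic ratios. KIF20A (gene identifier 10112), also called MKLP2, brings the chromosomal passenger complex to the spindle midzone. It was at 7.51 FPKM from 217 counts under FZD2 shRNA and 23.67 FPKM from 702 counts under control shRNA. Its log2 ratio was -1.54, or 2.899-fold lower, with a count log2 ratio of -1.66 (-1.89 to -1.44). KIF20B (9585), a relative in the same kinesin family with a role in the late steps of cell separation, lay in the opposite direction. It was at 48.27 FPKM from 2562 counts under FZD2 shRNA and 23.19 FPKM from 1263 counts under control shRNA. Its log2 ratio was 1.03, or 2.04-fold higher, with a count log2 ratio of 1.06 (0.96 to 1.15), so that its interval reached below 2-fold. The pair stood near equal levels under control shRNA, where KIF20B was 0.98 times KIF20A, and under FZD2 shRNA KIF20B was 6.43 times KIF20A. All 4 of these counts were whole numbers, so none shows reads split with another gene.

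KIF23 (9493), the motor of the centralspindlin complex, was at 15.56 FPKM under FZD2 shRNA and 26.65 FPKM under control shRNA, with a log2 ratio of -0.74. Its partner RACGAP1, the other centralspindlin subunit, was at 11.70 FPKM under FZD2 shRNA and 18.63 FPKM under control shRNA, so that KIF23 was 1.33 times RACGAP1 under FZD2 shRNA and 1.43 times under control shRNA. KIF14 (9928), which recruits citron kinase to the midbody, was at 8.75 FPKM under FZD2 shRNA and 7.80 FPKM under control shRNA. Its counting interval spanned a ratio of 1 (-0.04 to 0.33 on the log2 scale), and its counts were not whole. The 4 cytokinesis motors thus held 1 value past 2-fold in each direction.

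Among the spindle assembly motors, KIF11 (3832) was level. This plus-end motor, also called Eg5, slides spindle poles apart, and it was at 28.37 FPKM under FZD2 shRNA and 28.42 FPKM under control shRNA, a log2 ratio of -0.00. Its count interval ran from -0.12 to 0.11. After removal of the trend of ratios with GC content, the log2 ratio of KIF11 was 0.52, beside a median of 0.23 over all measured genes. KIF15 (56992), a second plus-end motor that can keep a spindle bipolar, was at 5.50 FPKM under FZD2 shRNA and 7.21 FPKM under control shRNA (log2 ratio -0.34). KIFC1 (3833), the minus-end motor that focuses poles and clusters extra centrosomes, was at 14.59 FPKM under FZD2 shRNA and 28.40 FPKM under control shRNA. At -0.92 it was the mitotic member closest to 2-fold lower without reaching it. KIFC1 and KIF11 had counts that were not whole, so some reads may be shared with other genes.

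Motors of chromosomes and microtubule ends lay on both sides. KIF4A (24137), a chromokinesin that also shapes the midzone with PRC1, was at 8.04 FPKM under FZD2 shRNA and 14.98 FPKM under control shRNA (log2 ratio -0.82). KIF22 (3835), the chromokinesin Kid, which pushes chromosome arms away from the poles, was at 46.90 FPKM under FZD2 shRNA and 33.83 FPKM under control shRNA (0.46). KIF18A (81930), which limits the length of kinetochore microtubules, was at 5.62 FPKM under FZD2 shRNA and 9.83 FPKM under control shRNA (-0.71). Its relative KIF18B (146909), which acts on astral microtubules, was at 29.02 FPKM under FZD2 shRNA and 22.73 FPKM under control shRNA (0.34, counts not whole). As with the KIF20 pair, the relatives lay on opposite sides of 0, and KIF18B was 5.16 times KIF18A under FZD2 shRNA and 2.31 times under control shRNA. The depolymerases that take tubulin off microtubule ends were KIF2C (11004), at 22.83 FPKM under FZD2 shRNA and 33.60 FPKM under control shRNA (-0.54), and KIF2A (3796), at 4.79 FPKM under FZD2 shRNA and 8.72 FPKM under control shRNA (-0.75). KIF2B, a depolymerase, and KIF4B, a close copy of KIF4A, were listed in neither library.

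Most promoters of the mitotic kinesins held short motifs that the member rule did not use. Late cell cycle genes often carry a CHR (cell cycle genes homology region), here searched as TTTGAA, and a CCAAT box, the site of the factor NF-Y. Both were searched on both strands, from 250 bases before to 50 bases after each transcript start in the RefSeq promoter table (GRCh38.p14), without overlapping each other in the sequences printed here. A CHR hexamer was present for 10 of the 15 mitotic kinesins and 1 of the 11 cargo-transport kinesins with a window, beside 15.8% of 15843 protein-coding genes. CCAAT was present for 11 of 15 mitotic and 4 of 11 cargo-transport kinesins, beside 42.1% of those genes. Both motifs were present for 9 of 15 mitotic kinesins and 1 of 11 cargo-transport kinesins, beside 8.17%, and 3 of the 15 mitotic kinesins held neither. Among the spindle and midbody partners of these motors, 11 of 14 genes with a window held the hexamer, 12 held CCAAT and 10 held both. Per window the shares of all 22199 windows were 12.4% for the hexamer and 34.7% for CCAAT. KIF5A, KIF13B, KIFC2 and KIFC3 are the cargo-transport kinesins without a window.

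The following sequences show how the motifs, in capitals, are placed in mitotic kinesin promoters, with ATTGG and TTCAAA being the same motifs on the other strand. KIF20A (chr5:138178862-138179161, plus strand) and KIF20B (chr10:89701340-89701639, plus strand) are given over the whole window because they are the 2 mitotic members past 2-fold. KIF11 (chr10:92593030-92593179, plus strand), KIF18A (chr11:28108107-28108256, minus strand), KIF18B (chr17:44947724-44947873, minus strand) and KIF23 (chr15:69414249-69414398, plus strand) are given from 100 bases before to 50 bases after the start as examples that hold both motifs.
KIF20A: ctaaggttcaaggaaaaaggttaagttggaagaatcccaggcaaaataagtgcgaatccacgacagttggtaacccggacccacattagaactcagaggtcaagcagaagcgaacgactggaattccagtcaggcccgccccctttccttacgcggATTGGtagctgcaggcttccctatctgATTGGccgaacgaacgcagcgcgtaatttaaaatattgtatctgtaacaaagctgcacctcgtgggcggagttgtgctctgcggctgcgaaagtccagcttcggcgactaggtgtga
KIF20B: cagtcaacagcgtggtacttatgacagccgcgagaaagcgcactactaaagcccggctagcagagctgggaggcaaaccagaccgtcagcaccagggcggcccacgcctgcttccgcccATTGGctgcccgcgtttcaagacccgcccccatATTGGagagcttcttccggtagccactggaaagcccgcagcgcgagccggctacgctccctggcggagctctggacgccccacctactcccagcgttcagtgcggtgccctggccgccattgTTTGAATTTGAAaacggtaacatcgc
KIF11: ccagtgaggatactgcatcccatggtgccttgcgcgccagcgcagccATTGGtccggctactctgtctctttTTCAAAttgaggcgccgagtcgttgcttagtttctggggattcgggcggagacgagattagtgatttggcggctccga
KIF18A: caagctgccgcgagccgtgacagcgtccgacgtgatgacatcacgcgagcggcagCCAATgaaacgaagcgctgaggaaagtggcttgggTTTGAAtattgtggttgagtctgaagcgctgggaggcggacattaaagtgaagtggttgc
KIF18B: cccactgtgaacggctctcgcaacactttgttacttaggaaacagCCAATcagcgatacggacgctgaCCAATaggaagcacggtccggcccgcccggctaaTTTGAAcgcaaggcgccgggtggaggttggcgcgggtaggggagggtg
KIF23: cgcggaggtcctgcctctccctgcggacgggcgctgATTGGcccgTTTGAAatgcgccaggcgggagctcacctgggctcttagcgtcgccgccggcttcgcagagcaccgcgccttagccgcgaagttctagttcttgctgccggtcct

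KIF20A and KIF20B each held 2 CCAAT boxes on the other strand. Those of KIF20A began 94 and 67 bases before the start, and those of KIF20B 131 and 98 bases before it. KIF20B also held 2 adjoining CHR hexamers at bases 25 and 31 after the start, and no such letters were found in the KIF20A window. KIF11, at a level ratio near 1, held a CCAAT box 53 bases and a hexamer 28 bases before the start. The CHR hexamer did not sort the mitotic members by their ratios, and no such split was made by CCAAT. The 9 measured members with a hexamer had a median log2 ratio of -0.34 (from -0.92 to 1.03), and the 4 without one had a median of -0.64 (from -1.54 to 0.46).

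**Figure D3:**
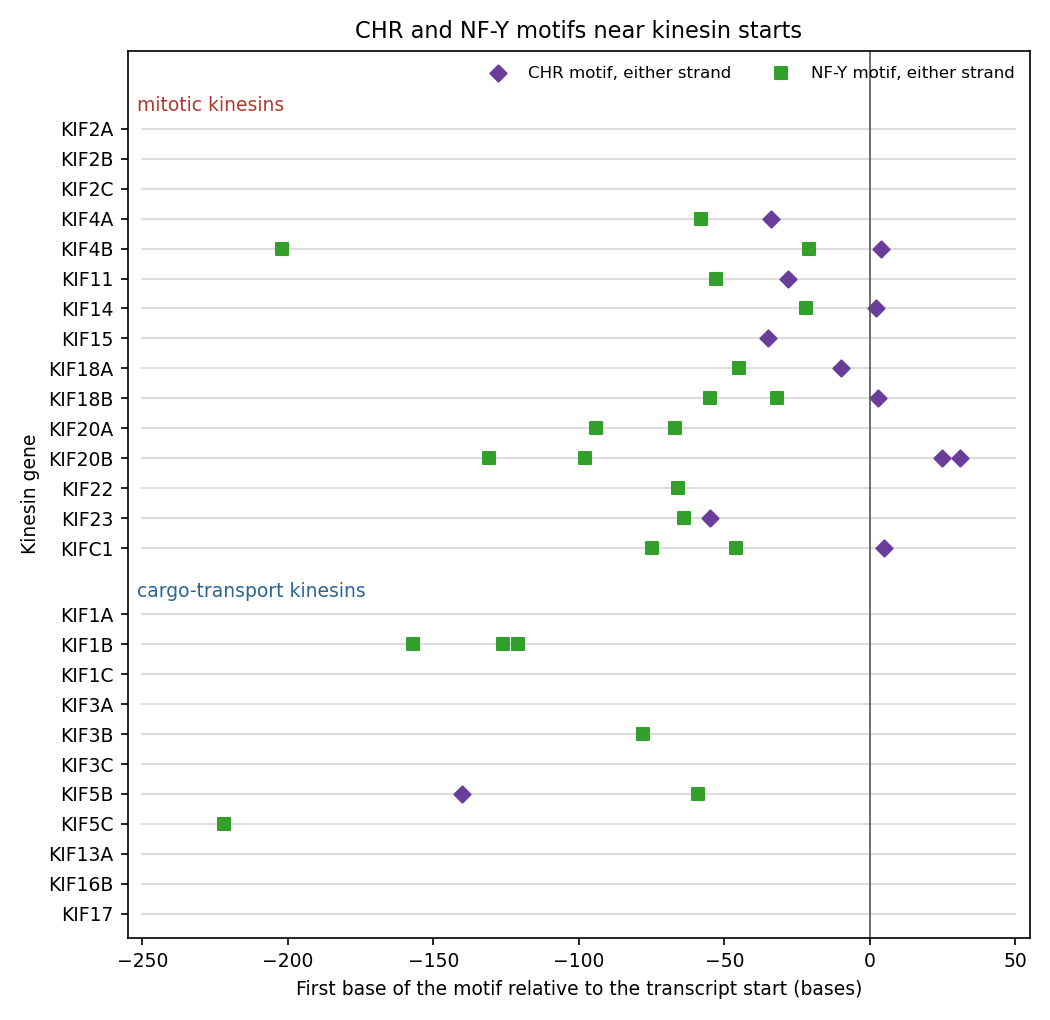
First base of each CHR and NF-Y (CCAAT) motif, on either strand, in bases relative to the transcript start, for the 15 mitotic and 11 cargo-transport kinesins with a promoter window. Grey lines are the windows searched, and genes with more than 1 start share a line. The CHR motifs of mitotic kinesins lie between 55 bases before and 31 bases after the start, and the one of KIF5B lies 140 bases before it.

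Among cargo-transport kinesins, KIF5B (3799) was the highest kinesin in both libraries. It is the heavy chain of conventional kinesin (kinesin-1) that most cell types express, and carries mitochondria, lysosomes and RNA. KIF5B was at 135.12 FPKM from 6668 counts under FZD2 shRNA and 64.79 FPKM from 3284 counts under control shRNA. Its log2 ratio was 1.05, or 2.07-fold higher, and its count log2 ratio of 1.06 (0.996 to 1.12) just reached below 2-fold. Both counts were whole. The neuronal heavy chains KIF5A and KIF5C were below 1 FPKM in both libraries. KIF5A was at 0.18 FPKM from 6 counts under FZD2 shRNA and 0.03 FPKM from 1 count under control shRNA, and KIF5C at 0.52 FPKM under FZD2 shRNA and 0.17 FPKM under control shRNA. The kinesin light chain gene KLC1, whose product links the heavy chain to cargo, was at 26.23 FPKM under FZD2 shRNA and 43.26 FPKM under control shRNA. KIF5B was therefore 5.15 times KLC1 under FZD2 shRNA and 1.498 times under control shRNA. Its promoter (chr10:32056376-32056675, minus strand) was the 1 of 11 cargo-transport promoters searched with a CHR hexamer, and is printed for comparison with the mitotic ones, motifs in capitals.
KIF5B: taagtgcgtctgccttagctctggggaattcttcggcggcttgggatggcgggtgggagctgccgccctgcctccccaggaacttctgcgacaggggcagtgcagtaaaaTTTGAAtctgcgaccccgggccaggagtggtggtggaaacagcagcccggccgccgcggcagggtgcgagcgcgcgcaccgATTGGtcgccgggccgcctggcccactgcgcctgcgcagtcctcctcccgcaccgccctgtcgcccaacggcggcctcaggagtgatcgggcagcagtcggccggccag

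The kinesin-2 subunits lay on both sides of 0. KIF3A (11127) pairs with KIF3B and the adaptor KIFAP3 in the heterotrimer that moves cargo inside cilia and in the cytoplasm. KIF3A was at 24.95 FPKM from 1311.06 counts under FZD2 shRNA and 7.04 FPKM from 379.32 counts under control shRNA. This was the highest ratio of any measured kinesin, with a log2 ratio of 1.69 or 3.23-fold higher, and a count log2 ratio of 1.83 (1.66 to 1.99). Its counts were not whole, so reads may have been split with other genes, and how many was not measured. KIF3B (9371) was at 32.99 FPKM under FZD2 shRNA and 23.94 FPKM under control shRNA (log2 ratio 0.45, counts not whole), and KIFAP3 at 5.04 FPKM under FZD2 shRNA and 6.39 FPKM under control shRNA (-0.29). KIF3C (3797), an alternative partner of KIF3A best known from neurons, was at 5.89 FPKM from 267 counts under FZD2 shRNA and 13.82 FPKM from 644 counts under control shRNA. Its log2 ratio was -1.10, or 2.15-fold lower, with a count log2 ratio of -1.24 (-1.45 to -1.03) and whole counts. The order of the 3 motor subunits thus differed, with KIF3A at 4.24 times KIF3C under FZD2 shRNA and 0.509 times under control shRNA. With a pseudocount of 5 FPKM, KIF3C was at -0.79, short of 2-fold. After removal of the trend of ratios with GC content it was at -0.97, also short of 2-fold. That trend was fitted on genes with whole counts, and its removal put the median of all measured genes at 0.23. The call of KIF3C in that setting was not re-centred on this median. KIF3A, KIF5B and KIF20A stayed past 2-fold in both settings.

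The kinesin-3 motors, which move vesicles and endosomes, were closer to level. KIF1C (10749), the second highest cargo-transport kinesin in both libraries, was at 46.92 FPKM under FZD2 shRNA and 36.26 FPKM under control shRNA (log2 ratio 0.36). KIF1B (23095), a carrier of mitochondria and synaptic vesicle precursors, was at 10.84 FPKM under FZD2 shRNA and 6.92 FPKM under control shRNA (0.58, or 1.07 with the GC trend taken out). KIF13A (63971), which acts on recycling endosomes, was at 3.26 FPKM under FZD2 shRNA and 5.41 FPKM under control shRNA (-0.59). These 3 had counts that were not whole. KIF13B (23303) was at 2.52 FPKM under FZD2 shRNA and 2.58 FPKM under control shRNA (-0.02), and KIF16B (55614), an early endosome motor, at 5.82 FPKM under FZD2 shRNA and 5.46 FPKM under control shRNA (0.08). The counting intervals of KIF13B and KIF16B both spanned a ratio of 1.

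The C-terminal motors KIFC2 and KIFC3 lay on opposite sides. KIFC2 (90990), a motor described in mouse neurons, was at 26.04 FPKM from 712 counts under FZD2 shRNA and 12.75 FPKM from 358 counts under control shRNA. At a log2 ratio of 0.98 it was the member just short of the 2-fold limit, while KIF20B, at 1.03, was the one just past it. KIFC2 passed 2-fold in 5 settings, among them TPM (1.15) and a pseudocount of 0.1 FPKM (1.02). KIFC3 (3801), which acts at cell junctions and on the Golgi, was at 14.71 FPKM under FZD2 shRNA and 21.22 FPKM under control shRNA (-0.50). KIF1A and KIF17, both known from neurons, were below 1 FPKM in both libraries.

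KIF5B weighed most in the summed levels. Mitotic kinesins made up 42.4% of the summed FPKM of measured kinesins under FZD2 shRNA and 54.7% under control shRNA, and cargo-transport kinesins 53.4% under FZD2 shRNA and 40.7% under control shRNA. The mitotic sum was 245.75 FPKM under FZD2 shRNA and 269.03 FPKM under control shRNA. The cargo-transport sum was 309.06 FPKM under FZD2 shRNA and 200.19 FPKM under control shRNA, or 173.94 FPKM under FZD2 shRNA and 135.40 FPKM under control shRNA without KIF5B. KIF5B alone was 23.3% of the kinesin sum under FZD2 shRNA and 13.2% under control shRNA.

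**Figure D4:**
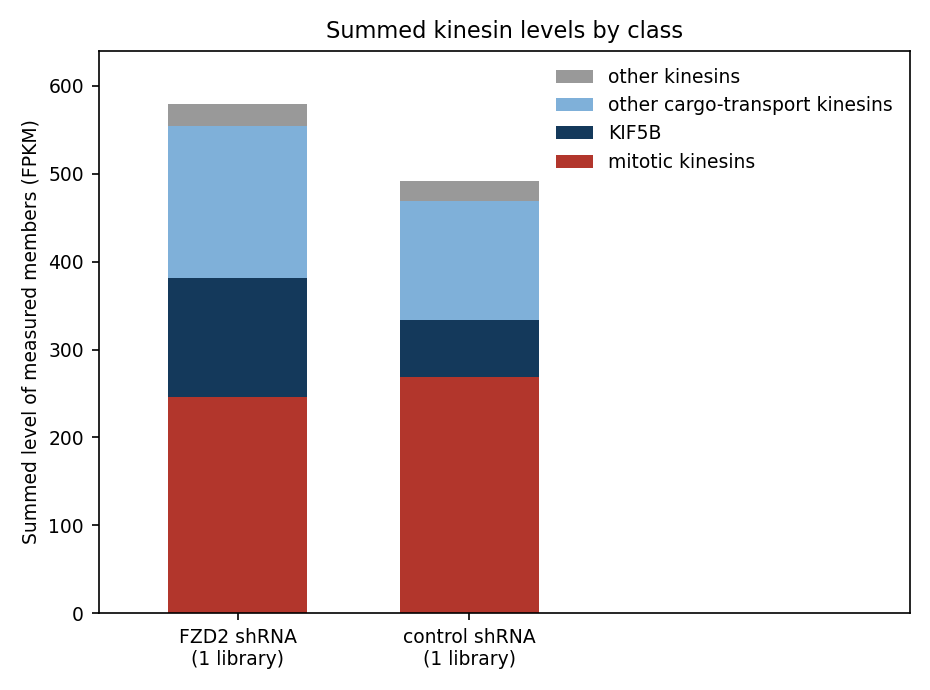
Summed FPKM of measured kinesin genes in each library, stacked by class, with KIF5B drawn apart from the other cargo-transport kinesins. The mitotic part is 245.75 FPKM under FZD2 shRNA and 269.03 FPKM under control shRNA, and the KIF5B part is 135.12 FPKM under FZD2 shRNA and 64.79 FPKM under control shRNA.

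None of the 6 measured members of the third class passed 2-fold, beside 15.2% higher and 7.41% lower among all measured genes. KIF21A, a brake on microtubule growth at the cell cortex, was the highest of them, at 14.11 FPKM under FZD2 shRNA and 12.77 FPKM under control shRNA. KIF7, a ciliary regulator of hedgehog signalling, was at 2.62 FPKM under FZD2 shRNA and 2.55 FPKM under control shRNA. KIF27, a relative of KIF7, was at 3.20 FPKM under FZD2 shRNA and 1.79 FPKM under control shRNA (log2 ratio 0.59, counts not whole). KIF27 was the member of this class whose counting interval did not span a ratio of 1. KIF9, KIF12 and KIF24 were between 1.19 and 2.16 FPKM in both libraries. KIF6, KIF21B, KIF26A and KIF26B were listed below 1 FPKM, and KIF19 and KIF25 were listed in neither library.

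Ratios of measured genes also moved with GC content and with shared reads, whose part in the kinesin values was not tested. The median GC content of transcripts was 42.3% over measured mitotic kinesins, 47.6% over cargo-transport kinesins and 49.0% over all measured genes. KIF20B, at 34.2%, had the lowest GC content of any measured kinesin. Removal of the GC trend raised the log2 ratio of KIF20B from 1.03 to 1.56, of KIF5B from 1.05 to 1.57 and of KIF3A from 1.69 to 2.21. Among measured kinesins it lowered only KIF18B, KIF12, KIFC3, KIF7 and KIFC2, at GC contents from 60.4% to 67.6%. With the GC trend taken out, the median of all measured genes was 0.23, that of mitotic kinesins -0.19 and that of cargo-transport kinesins 0.56. The trend was fitted on genes with whole counts and taken from all genes. Calls in that setting therefore also carry the move of the median of all measured genes from -0.00 to 0.23. Counts were not whole for 4 of 13 mitotic and 5 of 11 cargo-transport members. Among members with whole counts the medians were -0.71 over 9 mitotic and 0.03 over 6 cargo-transport members, beside -0.25 over all such genes. Each class then held 1 member at least 2-fold higher and 1 at least 2-fold lower, beside 4.19% higher and 10.2% lower among 8154 measured genes with whole counts.

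**Figure D5:**
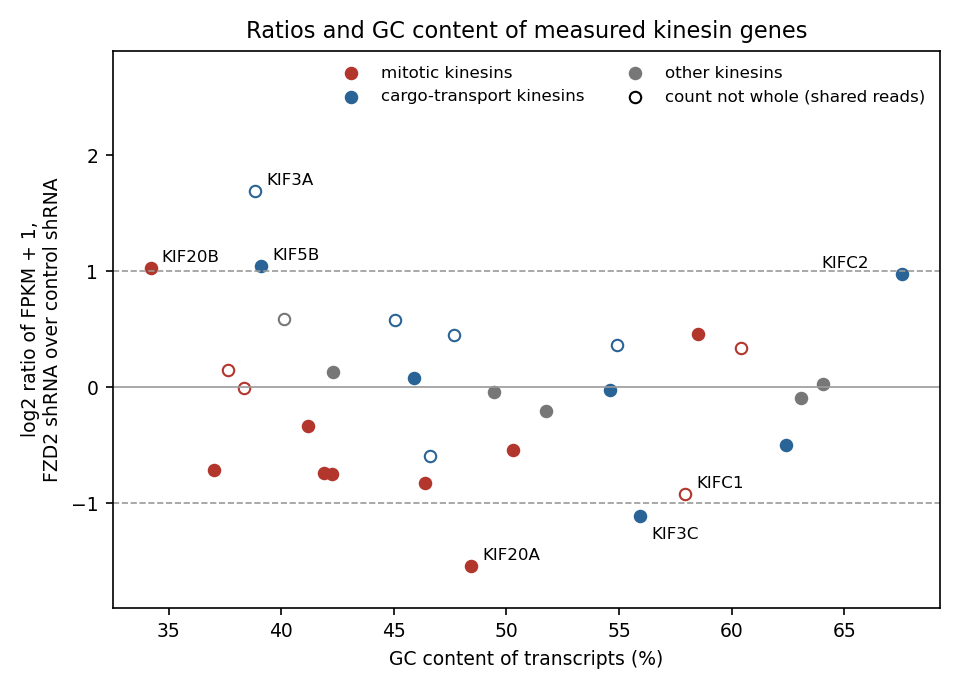
Log2 ratio of FPKM + 1, FZD2 shRNA over control, against the GC content of transcripts for the 30 measured kinesin genes, coloured by class, with open points for genes whose counts were not whole and dashed lines at 2-fold. KIF20B, KIF5B and KIF3A lie at GC contents between 34.2% and 39.1% with log2 ratios above 1, and KIFC2, at 67.6%, lies just below 1. Ratios are drawn without removal of the GC trend, which raised KIF20B, KIF5B and KIF3A and lowered KIFC2.

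Partners of the mitotic motors lay mostly below 0, with all 18 spindle and midbody genes measured. Their median log2 ratio was -0.62, with 3 at least 2-fold lower and 0 higher, beside 7.41% lower and 15.2% higher among all measured genes. Of the 18, 14 were below 0, beside 7207 of all 14377 measured genes. The highest of the 4 above 0 was the kinesin gene CENPE, at a log2 ratio of 0.90. Values mostly below 0 were not particular to this list, since 20 of 26 measured dynein and dynactin genes also lay below 0. CEP55, an abscission scaffold, was at 38.43 FPKM under FZD2 shRNA and 92.31 FPKM under control shRNA (-1.24). CDK1, the mitotic kinase, was at 21.01 FPKM under FZD2 shRNA and 49.92 FPKM under control shRNA (-1.21), and ANLN, the cleavage furrow protein anillin, at 28.13 FPKM under FZD2 shRNA and 62.22 FPKM under control shRNA (-1.12). NUSAP1, a spindle protein, was at 26.93 FPKM under FZD2 shRNA and 54.34 FPKM under control shRNA (-0.99) and did not reach 2-fold. After removal of the GC trend, 0 of the 18 were lower and 2 higher, beside 2.53% lower and 21.4% higher among the 13810 measured genes with GC content, and the list's median was -0.13 beside 0.23 over all measured genes.

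Genes that link kinesins to cargo lay nearer to level. Of 20 light chain and adaptor genes 19 were measured, with a median of -0.16, 1 at least 2-fold lower and 0 higher, beside 7.41% lower and 15.2% higher over all measured genes. The lower one was KIFBP, a kinesin binding protein that holds some kinesins off microtubules, at 11.74 FPKM under FZD2 shRNA and 26.92 FPKM under control shRNA (-1.13). The mitochondrial linkers RHOT1 (6.22 FPKM under FZD2 shRNA and 12.24 FPKM under control shRNA, -0.87, counts not whole) and TRAK2 (6.98 FPKM under FZD2 shRNA and 13.11 FPKM under control shRNA, -0.82) did not reach 2-fold. KTN1, the kinesin receptor kinectin, was at 165.41 FPKM under FZD2 shRNA and 95.34 FPKM under control shRNA (0.79). After removal of the GC trend, 0 of the 19 were lower and 1 was higher, beside 2.53% lower and 21.4% higher among genes with GC content.

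Cytoplasmic dynein, the motor that walks in the opposite direction, and its dynactin and adaptor genes had a median of -0.27 over 26 measured of 28, with 2 lower and 1 higher. The count of lower genes is near the 7.41% over all measured genes, and 15.2% of those were higher. Below 0 lay 20 of the 26, beside 14 of the 18 spindle and midbody genes and 7207 of all 14377 measured genes. The lower ones were the light chain genes DYNLL2 (12.33 FPKM under FZD2 shRNA and 34.22 FPKM under control shRNA, -1.40) and DYNLT1 (22.15 FPKM under FZD2 shRNA and 53.51 FPKM under control shRNA, -1.24). HOOK3, a dynein adaptor, was higher at 14.74 FPKM under FZD2 shRNA and 4.09 FPKM under control shRNA (1.63), with counts that were not whole. DCTN4, a dynactin subunit, was at 3.35 FPKM under FZD2 shRNA and 7.30 FPKM under control shRNA (-0.93). After removal of the GC trend, 0 of the 26 were lower and 3 higher, beside 2.53% lower and 21.4% higher among genes with GC content.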

How the data were processed

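Poly(A) RNA of SNU449 cells was measured in 1 FZD2 shRNA and 1 control shRNA library. Per the submitters' processing notes, Bowtie2, HISAT and the build hg19 were used, with no role stated. The deposited expected counts are the authors' estimates of reads per gene, not normalized and not always whole. The FPKM values, also deposited, carry the authors' scaling for the length of a gene and the depth of a library. Genes absent from a file were set to 0. No source used here gives the strand setting.

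Symbols and biotypes came from the RefSeq gene table (GRCh38.p14), and 87 of 19316 listed genes had none. The rule matched 45 symbols, of which 3 pseudogenes were left out. Log2 ratios used FPKM + 1 with no further scaling, which understates differences of low genes. Count ratios were taken on rounded counts relative to each library's total, with exact conditional binomial 95% intervals, and 3 counts are 3.64e-05% of the FZD2 shRNA total and 3.56e-05% of the control total. A count was whole within 0.001. Read sharing between near-identical genes could move counts that were not whole. GC content came from GENCODE release 29 transcripts matched by RefSeq accession (96.1% of measured genes), and its trend was fitted by lowess (fraction 0.3) on measured genes with whole counts.

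The members, classes and lists were chosen with earlier results of these data known. Values are given for every measured mitotic and cargo-transport member, members of the third class past 2-fold, and the up to 4 measured genes with the largest log2 ratio in size in each partner list. Any further gene named was picked with its values in view. The planned search of protein motor domains was not run, and protein sequences were not used here. Alternatives were other pseudocounts, filters, TPM, CPM, TMM (edgeR 4.0.16) and median-of-ratios scaling, other limits, whole counts alone, the GC trend taken out, and other class assignments. Software was SciPy 1.17.1, statsmodels 0.14.6, pandas 2.3.3, NumPy 2.4.6, matplotlib 3.10.9 and Python 3.11.15.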

Additional observations from a re-analysis of the deposited data

How the results depend on the processing

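At the 2-fold limit, 25 of the 30 measured kinesins kept their call over the 9 to 11 settings that changed the pseudocount, filter, scaling or GC trend, and no called member changed sign in any of them. The difference between the medians, mitotic minus cargo-transport, ran from -0.97 to -0.61 over 13 settings. TPM moved the median of all measured genes to 0.14, whole counts alone to -0.25 and the GC trend taken out to 0.23. With a pseudocount of 5 FPKM, 0 mitotic members were higher, since KIF20B fell short at 0.92, and 0 cargo-transport members were lower. Calls also fell over all 14377 measured genes in that setting, to 941 higher and 301 lower. With the GC trend taken out, the mitotic median was -0.19 and the cargo-transport median 0.56, beside 0.23 over all measured genes. In that setting 0 cargo-transport members were lower, and KIF1B (1.07) and KIF27 (1.11) passed 2-fold. These calls were not re-centred on the median of 0.23. Of the 13810 measured genes with GC content, 2951 were then higher and 350 lower. Without the trend removal, 2188 of all 14377 were higher and 1066 lower. KIF15 lay at 0.18 and KIF13B at 0.16 with the trend taken out, both above 0 but below the median of all measured genes. KIF11 moved to 0.52, above that median. In the third class KIF9 (0.08) and KIF24 (0.34) also moved above 0, and KIF7 (-0.13) moved below 0. Without a filter on low values the cargo-transport median was 0.20. With whole counts alone it was 0.027, and 1 cargo-transport member was higher, beside 342 of the 8154 measured genes with whole counts. At a limit of 1.5-fold, 6 mitotic and 2 cargo-transport members were lower, beside 3117 of all 14377 measured genes. At that limit 1 mitotic and 3 cargo-transport members were higher, beside 3747 of all measured genes. By the counting interval, 3 mitotic and 6 cargo-transport members were higher, and 8 mitotic and 3 cargo-transport members lower. Among all measured genes 35.5% were higher by the interval and 36.8% lower. KIFC2 passed 2-fold with a pseudocount of 0.1 FPKM, in TPM, in CPM and with TMM or median-of-ratios scaling. Where no other value shows it, the cause of these moves was not tested. No paired analysis was possible because each group holds 1 library, and no library could be left out. Depth limits the members below 1 FPKM, none of which had over 30 counts in either library.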

Other observations

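Kinesin motor genes whose symbols fall outside the member rule include CENPE and STARD9. CENPE, the kinetochore motor that moves chromosomes to the spindle equator, was at 31.98 FPKM from 2235 counts under FZD2 shRNA and 16.62 FPKM from 1192 counts under control shRNA. Its log2 ratio was 0.90, with a count log2 ratio of 0.94 (0.84 to 1.04) and whole counts, so it lay on the side of KIF20B and not of the mitotic median. STARD9, a large centrosomal kinesin once named KIF16A, was at 0.92 FPKM under FZD2 shRNA and 0.89 FPKM under control shRNA, from 120 counts in each.

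The fitted gene length, which the deposited files weight over transcripts in each library, was within 4% of its control value for every measured mitotic and cargo-transport kinesin. The largest gap among them was that of KIF2C, at 2719.12 bases under FZD2 shRNA and 2814.05 bases under control shRNA.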
